A study of Homo sapiens with 6 samples.

Results

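The genes described are 10 markers of neuroendocrine and enteroendocrine cells: the granins CHGA, CHGB, SCG2 and SCG5, the transcription factors INSM1 and NEUROD1, the vesicle protein SYP, the peptide hormone INSL5, and the prohormone convertases PCSK1 and PCSK2. They were read in 6 oligonucleotide microarrays of DLD-1, an established human line from a colon cancer. A probe set, the group of probes that measures 1 transcript region, was used where the platform annotation gave it exactly 1 gene symbol. By that rule 7 of the 10 genes had a value, from 8 probe sets, among 19775 genes and 54613 probe sets in all. No value was assigned here to NEUROD1, PCSK1 or PCSK2.

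The arrays held RNA of a subclone labelled DLD-1Δα-Cat (n = 3) and of another labelled DLD-1α-Cat (n = 3). Both were untreated and had been embedded for 96 h in 3-dimensional type I collagen at 1 mg/ml, the main fibre protein of connective tissue. What Δα-Cat stands for is not written out in the labels, and each label stands for 1 subclone, so a difference between the labels is a difference between those subclones. Whether replicate arrays had separate cultures is not stated, so their spread, and any p-value from it, may be technical.

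Enteroendocrine cells are the hormone-secreting cells of the gut epithelium, and neuroendocrine tumour cells share their secretory apparatus. Both store peptides in dense-core granules that granin proteins help to form. Prohormone convertases cut the peptide precursors at pairs of basic residues, and transcription factors such as NEUROG3, NEUROD1 and INSM1 set up the endocrine fate. In the colon the commonest endocrine cells include L cells, which secrete GLP-1, PYY and INSL5, and enterochromaffin cells, which make serotonin.

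Promoter sequences are shown for 3 of the markers. They are INSL5, the only measured marker whose arrays separated the subclones, SCG5, which was bright in both, and CHGA, the standard granule marker. CHGA was dim in both, as were CHGB, SCG2 and INSM1. Each sequence is the 250 bases before the transcript start in RefSeq (build GRCh38.p14), read on the gene's strand. Capitals mark TGACGTCA, the cAMP response element of many endocrine promoters, and TATANA, the core promoter motif bound by the general factor TFIID, on either strand. INSL5 lies at chr1:66801277-66801526 on the minus strand, SCG5 at chr15:32641460-32641709 and CHGA at chr14:92922900-92923149, both on the plus strand.
INSL5: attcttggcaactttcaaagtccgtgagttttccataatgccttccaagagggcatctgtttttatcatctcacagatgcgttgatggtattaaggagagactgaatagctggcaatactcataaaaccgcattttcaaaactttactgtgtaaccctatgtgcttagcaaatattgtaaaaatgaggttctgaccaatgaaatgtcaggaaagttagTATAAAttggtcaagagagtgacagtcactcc
SCG5: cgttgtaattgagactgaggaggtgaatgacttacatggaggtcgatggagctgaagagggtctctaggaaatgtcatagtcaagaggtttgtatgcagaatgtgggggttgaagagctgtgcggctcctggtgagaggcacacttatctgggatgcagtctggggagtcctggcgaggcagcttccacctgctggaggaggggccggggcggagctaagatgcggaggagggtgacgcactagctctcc
CHGA: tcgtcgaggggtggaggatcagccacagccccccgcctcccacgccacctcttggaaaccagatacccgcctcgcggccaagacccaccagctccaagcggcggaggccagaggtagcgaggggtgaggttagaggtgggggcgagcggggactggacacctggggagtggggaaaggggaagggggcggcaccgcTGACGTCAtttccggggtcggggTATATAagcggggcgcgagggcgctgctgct
The CHGA window held 1 TGACGTCA, beginning 54 bases before the start, and a TATANA match at 31 bases. The INSL5 window held a TATANA match at 32 bases and no TGACGTCA, and the SCG5 window held neither. Of 35116 promoter windows of that length, 1.65% held TGACGTCA and 17.7% TATANA. Of the 10 markers, 7 had a promoter entry (CHGA, SCG5, NEUROD1, SYP, INSL5, PCSK1 and PCSK2). TGACGTCA occurred in CHGA and in 1 of the 2 windows of PCSK1. TTCAGCACC, the left part of the RE1 element read by the neuronal repressor REST, occurred in none of their windows and in 0.288% of all. GGGCGG, a GC box, occurred in 42.6% of all windows, once in CHGA and once in SCG5, and not in INSL5. The motifs share no bases in the sequences shown, and a match is a description of letters, not a shown binding site.

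Values are log2 intensities made by the authors with RMA, which brings all arrays to 1 common distribution of brightness. Array medians lay between 6.12 and 6.15 and the lower quartile between 4.23 and 4.35, and values near the bottom cannot be told from background. Probe sets differ in affinity, so brightness is not set between genes as an RNA amount. In a bulk sample, fewer endocrine cells and less RNA per cell cannot be told apart. CTNNA1, which encodes α-catenin, was lower in DLD-1Δα-Cat, with a log2 difference of -1.52 (limma SE 0.12 and adjusted p = 0.000838). Epithelial markers were bright in both subclones, with array means over 9 genes of 12.04 to 12.29 in DLD-1Δα-Cat and 12.14 to 12.24 in DLD-1α-Cat. Among them LGALS4, a colonic galectin, differed by -0.49 (limma adjusted p = 0.32). The log2 ratio of β-actin's 3' control probe set to its 5' one, a sign of RNA quality, was 5.20 ± 0.159 in the DLD-1Δα-Cat arrays, against 4.69 ± 0.291 in the DLD-1α-Cat arrays (SD over 3 arrays; exact two-sided permutation p = 0.1, the smallest that 3 against 3 arrays allow). That of GAPDH was 0.749 ± 0.067 in DLD-1Δα-Cat, against 0.656 ± 0.144 in DLD-1α-Cat (SD over 3 arrays; exact permutation p = 0.4).

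INSL5 was higher in DLD-1Δα-Cat, while for the other 6 measured genes the arrays of the subclones overlapped. By the limma fit over all genes with Benjamini-Hochberg adjustment and a threshold of 0.05, 1 of 7 was higher and 0 lower (1 higher and 0 lower at an unadjusted p under 0.05), beside 5.52% of all genes called, 3.84% higher and 1.67% lower. At an unadjusted p under 0.05, 20.8% of all genes passed, 11.8% higher and 8.98% lower. With every probe set fitted on its own, 1 of the 8 marker probe sets was higher, beside 2.45% of all probe sets called in either direction. The arrays did not overlap in 1 of 7 markers, beside 27.2% of all genes. The median difference, always DLD-1Δα-Cat minus DLD-1α-Cat, was 0.070 over the 7 markers and -0.030 over all genes. The markers were chosen by name, with log2 differences of this same comparison already known. Their values and intervals are therefore given as a description, and nothing is read from the count.

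**Figure D1:**
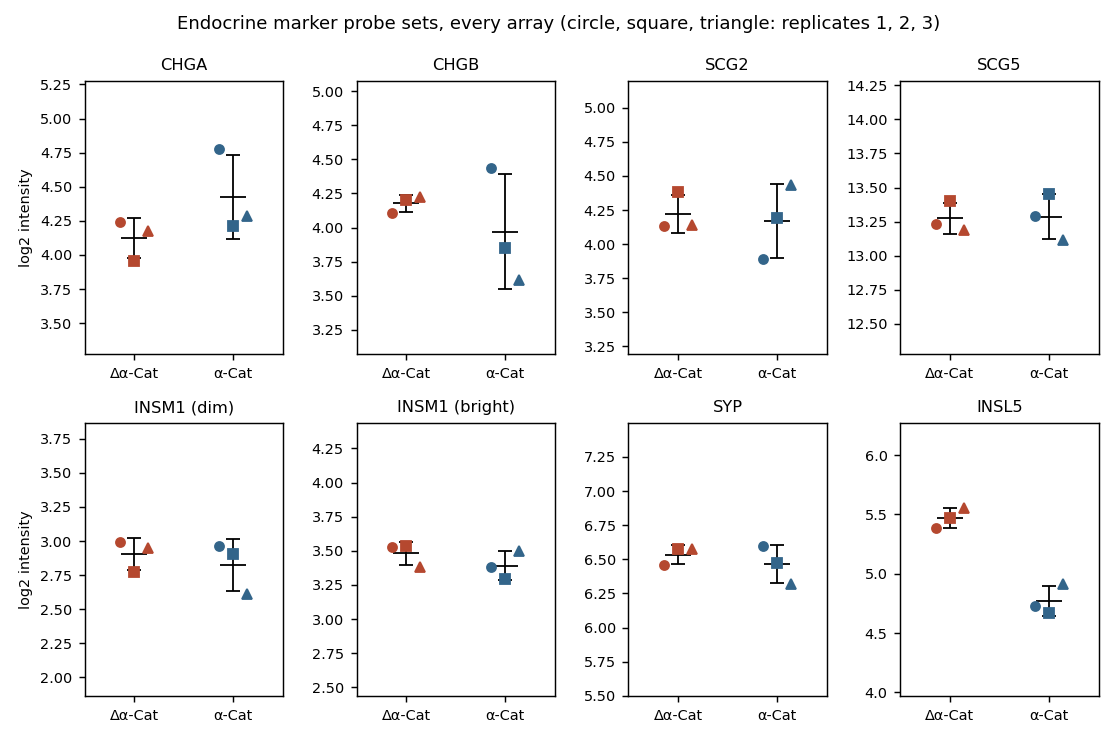
Log2 intensity (vertical axis, 1 panel per probe set, each with its own range) of the 8 endocrine marker probe sets in DLD-1Δα-Cat (left, red) and DLD-1α-Cat (right, blue). Symbols are single arrays, and bars give the mean and SD (n = 3). Only in the INSL5 panel do all 3 DLD-1Δα-Cat arrays, from 5.39 to 5.55, lie above all 3 DLD-1α-Cat arrays, from 4.67 to 4.91.

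Among the hormones, INSL5 is a relaxin-family peptide of colonic L cells that signals through the receptor RXFP4. It stood at 5.39, 5.47 and 5.55 in the 3 DLD-1Δα-Cat arrays, against 4.73, 4.67 and 4.91 in the 3 DLD-1α-Cat arrays. Every DLD-1Δα-Cat array was above every DLD-1α-Cat array. The means were 5.47 ± 0.0832 in DLD-1Δα-Cat, against 4.77 ± 0.126 in DLD-1α-Cat (SD, n = 3 each), a difference of 0.70 (SE 0.11, 95% interval 0.45 to 0.95) or 1.62-fold. Both groups lay below the array median, and the single probe set was at percentile 36.7 of brightness, so the fold is one of dim signals. The difference lay between 0.65 and 0.89 in 15 alternative analyses, all of the same sign. INSL5 was not past the threshold without replicate 2 (0.70) or replicate 3 (0.66) of DLD-1Δα-Cat, without moderation of the variances (0.70), or with the β-actin ratio as a covariate (0.89). The β-actin ratio lay between 5.07 and 5.38 in DLD-1Δα-Cat and between 4.36 and 4.89 in DLD-1α-Cat, without overlap. The fit with that covariate, here and below, therefore cannot separate RNA quality from subclone. A call lost in it is not read as an effect of either. The part of RNA quality in the difference was not tested beyond that fit.

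The nearest profiles to INSL5 over the 6 arrays, each gene centred on its own mean, were those of PPDPF, MAPKAPK2 and MTUS2. Their distances from it were 0.123, 0.147 and 0.153 log2 units. PPDPF differed by 0.63, the stress-activated kinase MAPKAPK2 by 0.62 and the microtubule-associated MTUS2 by 0.75. With 6 arrays in 2 groups, such a likeness mostly restates a difference of that size.

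Arrays of the subclones overlapped for all 4 granins. CHGA (chromogranin A), the serum and tissue marker of neuroendocrine tumours, stood at 4.24, 3.95 and 4.18 in DLD-1Δα-Cat, against 4.78, 4.21 and 4.28 in DLD-1α-Cat. The ranges overlapped, and replicate 1 of DLD-1α-Cat was the highest of the 6 arrays. The difference was -0.30 (SE 0.17, 95% interval -0.70 to 0.095), and it lay between -0.41 and -0.12 in 15 alternatives. Taken by replicate number, CHGA was lower in DLD-1Δα-Cat in all 3 pairs, by differences of -0.54, -0.26 and -0.10. In the fit that blocks on replicate number, CHGA was the 1 marker lower at an unadjusted p under 0.05 and was not past the adjusted threshold. CHGB (chromogranin B), another acidic granule matrix protein, stood at 4.11, 4.20 and 4.22 in DLD-1Δα-Cat, against 4.44, 3.85 and 3.62 in DLD-1α-Cat. Its DLD-1Δα-Cat arrays lay inside the wider range of the DLD-1α-Cat arrays, and the difference was 0.21 (SE 0.20, 95% interval -0.26 to 0.67). Single arrays moved it: it was 0.44 without replicate 1 of DLD-1α-Cat, the highest array, and 0.030 without replicate 3, the lowest. With the β-actin ratio as a covariate it turned to -0.16. SCG2, the precursor of the peptide secretoneurin, stood at 4.13, 4.38 and 4.14 in DLD-1Δα-Cat, against 3.89, 4.19 and 4.43 in DLD-1α-Cat. The groups overlapped fully, with a difference of 0.049 (SE 0.16, 95% interval -0.32 to 0.41) whose sign was kept in 12 of 15 alternatives. These 3 probe sets lay at percentiles 24.9, 22.1 and 23.8 of brightness. No detection calls were at hand, and values this dim may be background in both subclones.

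SCG5 encodes 7B2, a small granin-family protein that chaperones the convertase PCSK2. It differed from the other granins in being bright: it stood at 13.23, 13.40 and 13.19 in DLD-1Δα-Cat, against 13.29, 13.45 and 13.12 in DLD-1α-Cat, at percentile 98.3 of all probe sets. The 6 arrays spanned 13.12 to 13.45, and replicate 2 was the highest array of each subclone. The difference was -0.013 (SE 0.12, 95% interval -0.30 to 0.27). It was -0.31 with the β-actin ratio as a covariate and lay between -0.099 and 0.068 without single arrays. Differences within that interval cannot be told from 0 with these arrays.

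INSM1 is a zinc-finger transcription factor of endocrine differentiation and a nuclear marker used in tumour pathology. Its brighter probe set stood at 3.53, 3.54 and 3.38 in DLD-1Δα-Cat, against 3.38, 3.29 and 3.50 in DLD-1α-Cat. The difference was 0.091 (SE 0.10, 95% interval -0.15 to 0.33). The dimmer one stood at 3.00, 2.77 and 2.95 in DLD-1Δα-Cat, against 2.96, 2.90 and 2.61 in DLD-1α-Cat, a difference of 0.081. Groups overlapped on both probe sets, which lay at percentiles 12.4 and 3.3 of brightness, at the floor of the array.

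SYP (synaptophysin), a membrane protein of small vesicles, stood at 6.46, 6.57 and 6.57 in DLD-1Δα-Cat, against 6.60, 6.47 and 6.32 in DLD-1α-Cat. The groups overlapped, and the probe set was close to the middle of the array's scale, at percentile 54.5. The difference was 0.070 (SE 0.11, 95% interval -0.18 to 0.32), and -0.10 with the β-actin ratio as a covariate. In all 7 measured markers the SD between arrays was larger in DLD-1α-Cat, as it was for 65.9% of all genes.

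**Figure D2:**
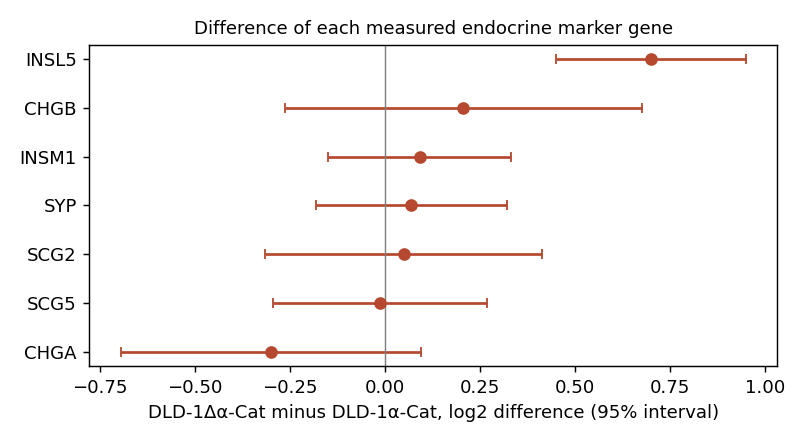
Difference in log2 intensity, DLD-1Δα-Cat minus DLD-1α-Cat (horizontal axis), of the 7 measured endocrine marker genes, each by its brightest probe set. Points are differences of means of 3 arrays and bars 95% intervals from the limma fit over all genes. The INSL5 interval, 0.45 to 0.95, lies above 0, and the other 6 include 0.

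The rest of the endocrine apparatus was read from 8 lists of 125 measured genes that are not among the markers. Of these, 10 rose and 3 fell in DLD-1Δα-Cat, or 10.4%, beside 5.52% of all genes called, and the median difference was -0.057, against -0.030 over all genes. Neither share was tested against the other. The called shares of single lists ran between 0% and 22.2%, and no list was tested against another. Without moderation of the variances, and likewise with the β-actin ratio as a covariate, 2 of the 13 calls were kept, those of CALCA and ELAVL2. All adjusted p-values below are from the limma fit over all genes.

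**Figure D3:**
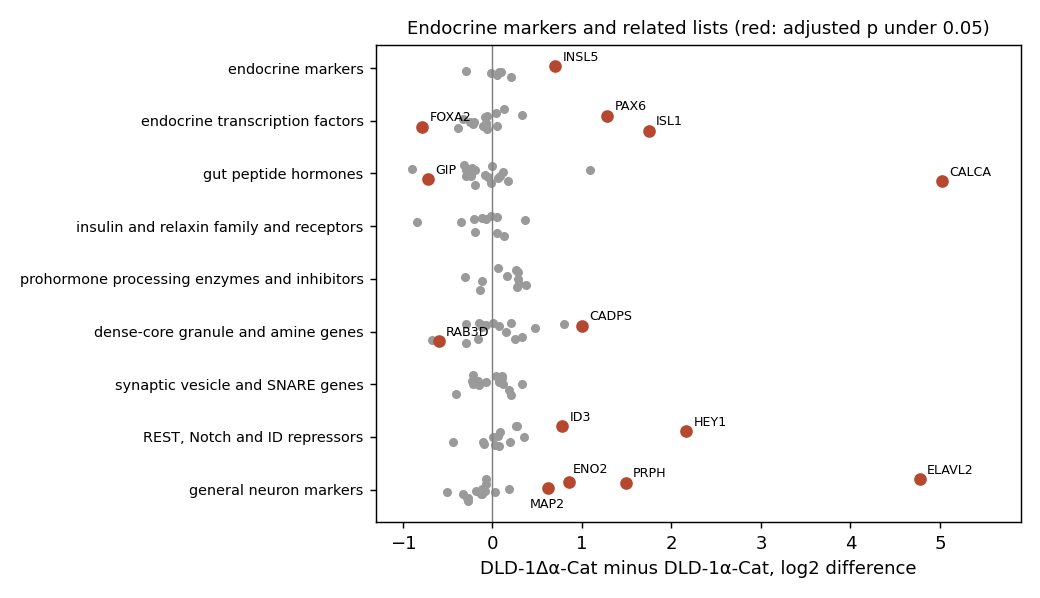
Difference in log2 intensity, DLD-1Δα-Cat minus DLD-1α-Cat (horizontal axis), of the measured endocrine markers (top row) and of the genes of 8 related lists. Each point is 1 gene by its brightest probe set, and red points with names have a limma adjusted p under 0.05. Most points lie close to 0, with CALCA at 5.02 and ELAVL2 at 4.77 far to the right.

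Of 18 endocrine transcription factors, 2 rose and 1 fell (16.7% called, beside 5.52% of all genes), with a median difference of -0.076. ISL1, a LIM-homeodomain factor of endocrine cells and motor neurons, stood at 10.20, 9.72 and 9.91 in DLD-1Δα-Cat, against 8.46, 8.08 and 8.04 in DLD-1α-Cat. The groups were far apart, with a 3.35-fold difference, or 1.74 on the log2 scale (SE 0.17, adjusted p = 0.00182), and ISL1 passed without any 1 of the 6 arrays. It did not pass without moderation (adjusted p = 0.0694) or with the β-actin ratio (1.71, adjusted p = 0.124). PAX6, a paired-box factor of islet, gut endocrine and eye development, stood at 7.76, 7.73 and 7.37 in DLD-1Δα-Cat, against 6.11, 6.60 and 6.31 in DLD-1α-Cat. Its difference was 1.28 (SE 0.16, adjusted p = 0.0062), but its other, dimmer probe set gave 0.037 and did not pass. Its call was lost without moderation (adjusted p = 0.0945) and with the β-actin ratio (1.10, adjusted p = 0.285). FOXA2, a forkhead factor of endoderm, stood at 6.83, 6.59 and 6.74 in DLD-1Δα-Cat, against 7.43, 7.33 and 7.75 in DLD-1α-Cat. It fell by 0.79 on the log2 scale (SE 0.14, adjusted p = 0.0201), while its other probe sets, at -0.71 and -0.10, did not pass. With the β-actin ratio as a covariate the difference was -0.42 (adjusted p = 0.516), and without moderation adjusted p was 0.124. FOXA2 did not pass without replicate 2 (-0.72, adjusted p = 0.087) or 3 (-0.80, adjusted p = 0.0708) of DLD-1Δα-Cat or replicate 3 of DLD-1α-Cat (-0.66, adjusted p = 0.0568). NEUROG3, the factor that starts the endocrine lineage in the gut, differed by -0.076 (adjusted p = 0.81) and NKX2-2, an islet and gut endocrine factor, by -0.083 (adjusted p = 0.72). These 2 were added as examples after their values had been seen. Their means over the 6 arrays were 5.05 for NEUROG3 and 4.14 for NKX2-2, dim values that may be background in both subclones.

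Of 20 peptide hormone genes, 1 rose and 1 fell (10% called, beside 5.52% of all genes). The median difference was -0.14, and 3 had a mean above the median of all genes. CALCA, which encodes calcitonin and CGRP, stood at 9.95, 10.39 and 10.82 in DLD-1Δα-Cat, against 5.71, 5.17 and 5.22 in DLD-1α-Cat. It was 5.02 higher on the log2 scale (SE 0.24, adjusted p = 7.88e-05). Of its 4 probe sets 3 passed, between 3.82 and 5.02, and the remaining one gave 0.32. GIP, the incretin of small-intestinal K cells, stood at 5.83, 5.63 and 6.0 in DLD-1Δα-Cat, against 6.73, 6.46 and 6.42 in DLD-1α-Cat. It fell by 0.72 on the log2 scale (SE 0.14, adjusted p = 0.0274), close to the array median in both subclones. With single arrays left out GIP passed in 2 of 6 fits, and failed without replicate 1 (-0.72, adjusted p = 0.0805) or 2 (-0.62, adjusted p = 0.103) of DLD-1Δα-Cat and replicate 1 (-0.62, adjusted p = 0.0562) or 3 (-0.78, adjusted p = 0.0764) of DLD-1α-Cat. The partners of INSL5 in L cells were dim: GCG, the proglucagon gene, averaged 3.56 ± 0.143 in the DLD-1Δα-Cat arrays, against 3.80 ± 0.292 in the DLD-1α-Cat arrays, and PYY averaged 5.61 ± 0.228 in the DLD-1Δα-Cat arrays, against 5.92 ± 0.134 in the DLD-1α-Cat arrays (SD, n = 3 each). GCG differed by -0.24 (adjusted p = 0.431) and PYY by -0.32 (adjusted p = 0.26). Arrays of the subclones overlapped for GCG. For PYY all DLD-1Δα-Cat arrays lay below all DLD-1α-Cat arrays, and arrays did not overlap in 27.2% of all genes. GCG and PYY too were chosen after their values had been seen. In the insulin and relaxin family with its receptors, 0 of 11 passed (0 higher and 1 lower at an unadjusted p under 0.05), and RXFP4 had no value.

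Of 11 enzymes and inhibitors of prohormone processing, 0 passed in either direction (2 higher and 0 lower at an unadjusted p under 0.05). The median difference was 0.26, with 8 of 11 above 0, beside 44.7% of all genes. The largest difference was that of CPE, carboxypeptidase E, which trims basic residues after the convertases have cut. CPE stood at 11.71, 11.86 and 11.82 in DLD-1Δα-Cat, against 11.52, 11.66 and 11.07 in DLD-1α-Cat. Its difference of 0.38 (adjusted p = 0.239) was -0.074 with the β-actin ratio as a covariate. FURIN, the convertase of the secretory pathway in most cells, differed by 0.17 (adjusted p = 0.373), and PCSK1N, the inhibitor of PCSK1, by 0.28 (adjusted p = 0.643); both were picked after their values had been seen.

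Of 18 dense-core granule and amine genes, 1 rose and 1 fell (11.1% called, beside 5.52% of all genes; median difference -0.038). CADPS, which primes dense-core granules for release, stood at 11.27, 11.51 and 11.11 in DLD-1Δα-Cat, against 10.41, 10.49 and 10.002 in DLD-1α-Cat. Its difference was 1.00 (SE 0.16, adjusted p = 0.0167), its 6 probe sets lay between 0.37 and 1.32, and 2 of them passed. With the β-actin ratio as a covariate it was 0.50 (adjusted p = 0.396), and it did not pass without moderation either (adjusted p = 0.129). RAB3D, a GTPase of secretory granules, stood at 8.29, 8.24 and 8.07 in DLD-1Δα-Cat, against 8.71, 8.82 and 8.86 in DLD-1α-Cat. It fell by 0.60 on the log2 scale (SE 0.10, adjusted p = 0.02), its other probe set gave -0.18 and did not pass, and the mean of both fell by 0.39 (adjusted p = 0.05, not under the threshold). It did not pass without moderation (adjusted p = 0.087) or with the β-actin ratio (-0.58, adjusted p = 0.408). CADPS did not pass without replicate 1 (1.01, adjusted p = 0.0526) or 2 (0.89, adjusted p = 0.0633) of DLD-1Δα-Cat or replicate 3 of DLD-1α-Cat (0.85, adjusted p = 0.0509). RAB3D did not pass without replicate 2 (-0.62, adjusted p = 0.0769) or 3 (-0.53, adjusted p = 0.0822) of DLD-1Δα-Cat or replicate 3 of DLD-1α-Cat (-0.57, adjusted p = 0.0821). TPH1, the serotonin-making enzyme of enterochromaffin cells, was named after its values had been seen. It averaged 6.73 ± 0.358 in the DLD-1Δα-Cat arrays, against 5.92 ± 0.485 in the DLD-1α-Cat arrays (SD, n = 3 each). Its arrays overlapped, with adjusted p = 0.148. In the same list DDC differed by -0.30, GCH1 by -0.11, SLC18A1 by 0.00013 and SLC18A2 by 0.15, and none of them passed. No enterochromaffin trait is read from TPH1. Of 15 synaptic vesicle and SNARE genes 0 passed (0 also at an unadjusted p under 0.05, where 20.8% of all genes passed), and the largest difference among the brighter ones was 0.33 for the vesicle SNARE VAMP2 (adjusted p = 0.269).

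Of 14 genes listed as REST, Notch and ID repressors, 2 rose and 0 fell (3 higher and 1 lower at an unadjusted p under 0.05). The called share was 14.3%, beside 5.52% of all genes. REST, the repressor of neuronal and neuroendocrine genes, averaged 11.70 ± 0.105 in the DLD-1Δα-Cat arrays, against 11.70 ± 0.115 in the DLD-1α-Cat arrays (SD, n = 3 each), a difference of 0.0080 (adjusted p = 0.975). HES1, the Notch target that represses NEUROG3, differed by -0.091 (adjusted p = 0.602), and both were chosen after their values had been seen. HEY1, another Notch-responsive repressor, stood at 8.07, 8.68 and 8.80 in DLD-1Δα-Cat, against 6.24, 6.26 and 6.55 in DLD-1α-Cat. It was 4.49-fold higher, or 2.17 on the log2 scale (SE 0.20, adjusted p = 0.00161), both its probe sets passed, and it passed without any 1 array. HEY1 did not pass without moderation (adjusted p = 0.0714) or with the β-actin ratio (2.37, adjusted p = 0.0786). The other was ID3, an inhibitor of basic helix-loop-helix factors, at 0.78 (adjusted p = 0.00828), which likewise failed in those fits (adjusted p = 0.0701 and 0.313).

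Of 18 general neuron markers 4 rose and 0 fell, a called share of 22.2%, beside 5.52% of all genes. At an unadjusted p under 0.05, 4 were higher and 2 lower, where 20.8% of all genes passed. The list's median was -0.10, and arrays did not overlap in 38.9% of it, beside 27.2% of all genes. All DLD-1Δα-Cat arrays lay below all DLD-1α-Cat arrays for GAP43 (-0.50), DCX (-0.29) and TUBB3 (-0.28). These did not pass (adjusted p = 0.241, 0.204 and 0.197) and were named after their values had been seen. ELAVL2, a neuronal RNA-binding protein, differed by 4.77 (adjusted p = 3.09e-05) on its brighter probe set, and its other probe set, at 1.32, did not pass. PRPH (peripherin), an intermediate filament of peripheral neurons, stood at 8.67, 8.83 and 8.51 in DLD-1Δα-Cat, against 6.71, 7.20 and 7.62 in DLD-1α-Cat. The arrays did not overlap, with a difference of 1.49 (SE 0.22, adjusted p = 0.0115) that passed without any 1 array. PRPH did not pass without moderation (adjusted p = 0.125) or with the β-actin ratio (1.86, adjusted p = 0.166). ENO2, the neuron-specific enolase used as a neuroendocrine serum marker, differed by 0.86 (adjusted p = 0.035). Its only probe set did not pass with every probe set tested (adjusted p = 0.0587). Nor did ENO2 pass without moderation (adjusted p = 0.173) or with the β-actin ratio (1.18, adjusted p = 0.242). MAP2, a dendritic microtubule protein outside the rule for named genes and added to complete the count, differed by 0.62 (adjusted p = 0.024). ENO2 did not pass without replicate 1, 2 or 3 of DLD-1Δα-Cat (0.93, 0.81 and 0.83) or replicate 2 of DLD-1α-Cat (0.87). With single arrays left out, MAP2 passed in 1 of 6 fits, the one without replicate 2 of DLD-1α-Cat. Its differences in the others were 0.65, 0.57 and 0.64 without replicates 1, 2 and 3 of DLD-1Δα-Cat, and 0.55 and 0.60 without replicates 1 and 3 of DLD-1α-Cat. MAP2 passed in 8 of 10 other settings, and its other probe set, at 0.61, did not pass. Array means over the 18 genes were 6.55 to 6.61 in DLD-1Δα-Cat and 6.18 to 6.33 in DLD-1α-Cat. ELAVL2, at 4.77, is part of these means, so their gap is not read as a rise of the list. Of the 18 differences 6 lay above 0 (33.3%, beside 44.7% of all genes). Fibroblast markers (0 of 8) and leukocyte markers (0 of 6) had no call, with 0 and 2 lower at an unadjusted p under 0.05. Array means of the fibroblast list were 4.48 to 4.55 in DLD-1Δα-Cat and 4.41 to 4.81 in DLD-1α-Cat, and those of the leukocyte list 4.66 to 4.77 in DLD-1Δα-Cat and 4.83 to 5.15 in DLD-1α-Cat.

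**Figure D4:**
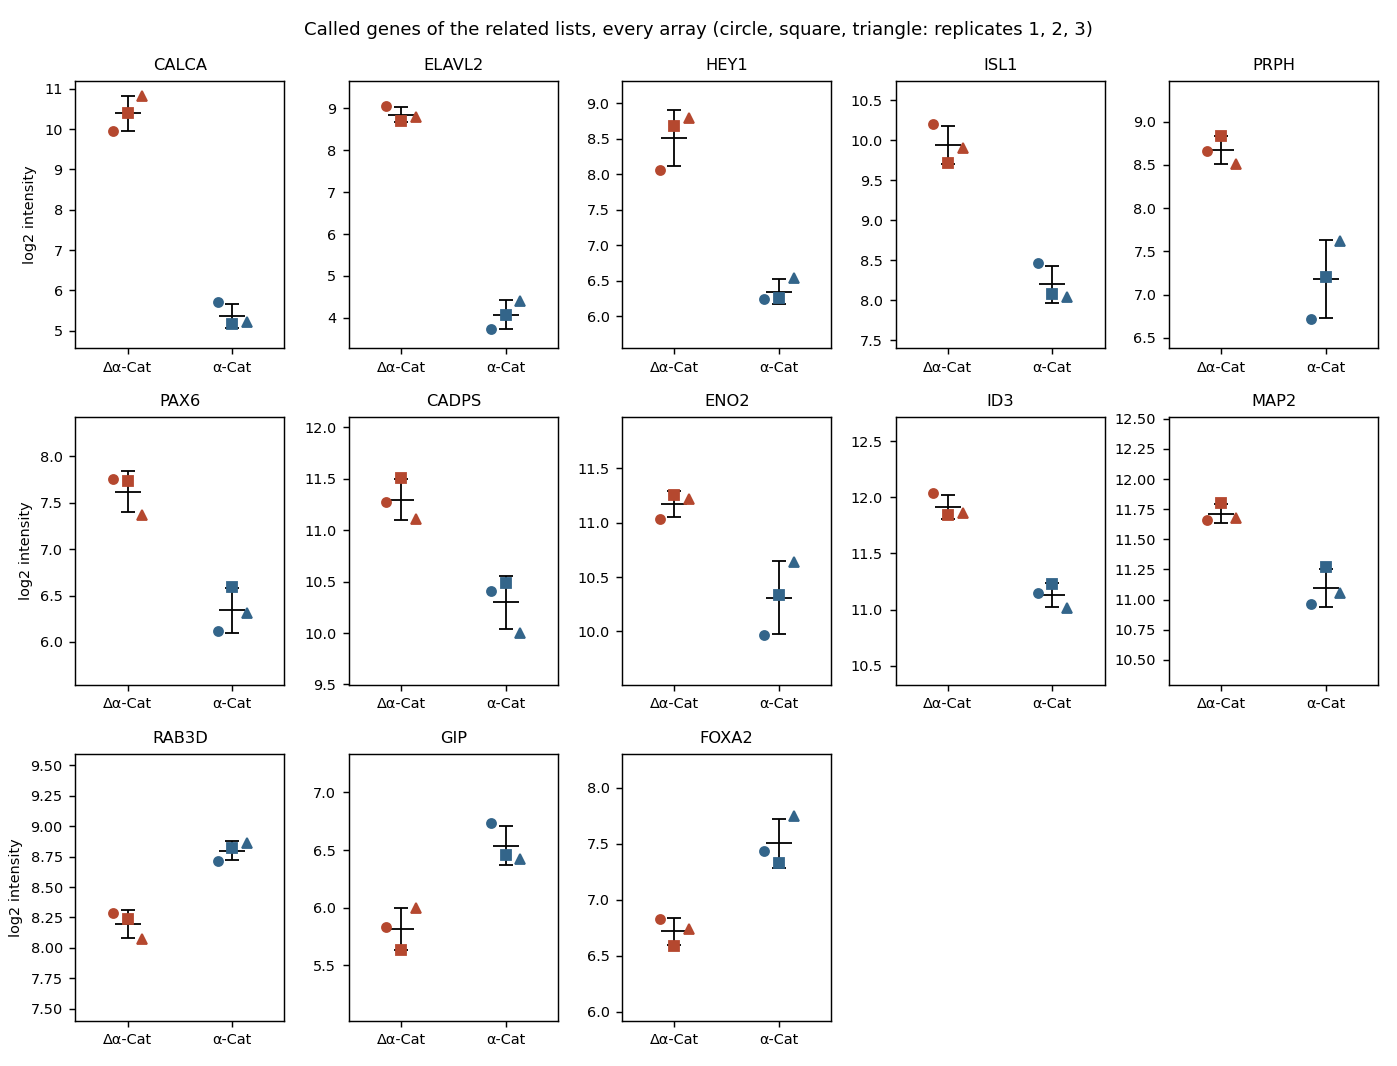
Log2 intensity (vertical axis, each panel with its own range) of the 13 called genes of the related lists in DLD-1Δα-Cat (left, red) and DLD-1α-Cat (right, blue). Symbols are single arrays, and bars give the mean and SD (n = 3). In all 13 panels the arrays of the subclones do not overlap, with RAB3D, GIP and FOXA2 lower in DLD-1Δα-Cat and the other 10 higher.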

How the data were processed

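Total RNA of 6 samples was hybridised to Affymetrix arrays with 54675 probe sets. The deposited values are log2 intensities, which the submitters' processing notes credit to the authors' use of RMA and Affymetrix Expression Console, with no version given. Of the probe sets 62 are controls and were dropped. The platform annotation of 2016 gave 1 symbol for 41091 of the others, several for 1801, and did not list 11721. By gene ID 41037 matched RefSeq (GRCh38.p14), and 0 symbols changed. For each of 19775 genes the probe set with the highest mean was taken, with no filter on dim genes. Intervals, SE and adjusted p come from limma 3.58.1 in R 4.3.3 (lmFit, eBayes, two-sided, Benjamini-Hochberg over all genes, threshold 0.05). Every probe set was fitted in the same way, and the script was tested on simulated data. The number of arrays limits precision.

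The markers, lists and rule for named genes were chosen with earlier results of these data known. The rule named all markers, up to 3 called genes per list with the largest absolute difference (or the most different gene above the median of all genes), and the 3 genes nearest to the most different marker by Euclidean distance. Deviations of same-numbered arrays correlated at 0.225, 0.376 and 0.122 over genes. From the data rather than a stated design, the titles' replicate numbers were therefore taken as pairs in an alternative fit with a replicate block. The SE, intervals and main calls are from the fit without that block. The other alternatives were the mean of probe sets, every probe set tested, 2 renormalizations (quantiles and centring), leaving out dim genes, 2 variance models, array weights, the β-actin ratio as a covariate and leaving out each array. Scanner files and detection calls were not used here.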

Additional observations from a re-analysis of the deposited data

How the results depend on the processing

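The number of markers called higher was 1 with the replicate block, the mean of probe sets, every probe set tested, both renormalizations, the trend and robust model and array weights. It was 0 with dim genes left out (INSL5 is removed by that filter), without moderation and with the β-actin ratio as a covariate, and 0 to 1 without single arrays. The number called lower was 0 in every setting (limma; 1 at an unadjusted p under 0.05 with the replicate block and 0 in the other settings). Of the 125 related genes, 2 were higher and 0 lower without moderation, and 2 and 0 with the β-actin ratio as a covariate, where 7 and 5 were lower at an unadjusted p under 0.05. With dim genes left out, 10 related genes were higher and 2 lower. That filter removes PAX6, FOXA2 and GIP, so these counts include genes not called in the main fit, which were not followed. There were 6 lower with the trend and robust model and 5 with array weights, and 7 to 9 higher and 0 to 3 lower without single arrays. Without replicate 2 of DLD-1Δα-Cat or replicate 3 of DLD-1α-Cat, 0 were lower, and without replicate 3 of DLD-1Δα-Cat 1 was. Over all genes, 1150 were higher and 564 lower with the trend and robust model, 67 and 48 without moderation, and 58 and 26 with the β-actin ratio. Array weights gave 549 lower genes, and leaving out single arrays 323 to 854 higher and 116 to 348 lower. The replicate block gave 1 and 0 markers, 10 and 4 related genes, and 1012 and 449 of all genes. It changed the call of no marker and kept the calls of all related genes called in the main fit. A further related gene was called lower with the block, and which gene that was has not been followed. INSL5 and the related genes called in the main fit did not change sign in these settings, and signs of other called genes were not followed. The causes were not tested. Intervals of the dim markers say nothing about RNA below the array's floor.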

Other observations

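Further genes of the related lists had arrays that did not overlap between the subclones but did not pass the limma threshold, and a few of them are described here. They were singled out after their values had been seen, and non-overlap occurred in 27.2% of all genes. NTS, the gut peptide neurotensin, stood at 5.14, 3.97 and 4.31 in DLD-1Δα-Cat, against 3.22, 3.31 and 3.61 in DLD-1α-Cat, a difference of 1.09 (limma adjusted p = 0.0747) among dim values. GAL, the neuropeptide galanin, stood at 8.30, 8.42 and 8.85 in DLD-1Δα-Cat, against 9.24, 9.06 and 9.96 in DLD-1α-Cat, a difference of -0.90 (limma adjusted p = 0.0936). IGF1, a growth factor related to insulin, stood at 7.29, 6.97 and 7.04 in DLD-1Δα-Cat, against 8.49, 7.87 and 7.48 in DLD-1α-Cat, a difference of -0.85 (limma adjusted p = 0.0971). CADPS2, the close relative of CADPS, had a difference of -0.67 (limma adjusted p = 0.0824), where CADPS had 1.00, and the contrast between these genes was not tested.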
